A study of Nicotiana tabacum with 12 samples.

Results

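Expansin-A6-like and expansin-A10-like genes of tobacco, 3 of the 45034 genes in the deposited tables, were followed across control and induced seedlings. They were taken by their identifiers, and the authors' deposited table describes LOC107802488 as expansin-A6-like and LOC107792895 and LOC107802017 as expansin-A10-like. All 3 were measured in both tables of all genes. Polyadenylated RNA came from the aerial parts of Nicotiana tabacum seedlings, cultivar Petit Havana SR1, with 15 seedlings per collection and 3 libraries in each of 4 groups. Every group came from T2 seed of stable transformants in which a β-estradiol inducible promoter drives AmMIXTA, which encodes a snapdragon transcription factor of the MYB family. The control group of 4 h was not induced and was 7 days old, and the induced group of 4 h was 7 days old and given β-estradiol. The control and induced groups of 48 h were 9 days old. The study asked which genes respond as glandular trichomes begin to form on cotyledons, which normally bear none. Estradiol-treated seedlings without the transgene, the level of AmMIXTA itself and the number of independent lines were not analysed here, so a response to estradiol and a response to AmMIXTA cannot be told apart.

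Plant cells are held in by a wall of cellulose microfibrils tied together by other polysaccharides, and they grow when that wall yields to turgor. Alpha-expansins are secreted proteins that loosen the wall at acidic pH without cutting its polymers. They are encoded by a large gene family, and its members are known for roles in the expansion of leaf, stem and root cells and in the outgrowth of hairs. The names A6 and A10 follow Arabidopsis relatives, of which EXPA10 is known for its part in leaf growth. Tobacco is an allotetraploid, so 2 genes with the same name can be near-identical copies. The way shared reads were divided between them is not given in the sources used here, and the split between the A10 genes is therefore uncertain.

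The recovered reads per library ranged from 12457701 to 30103266, apart from control replicate 1, with 917871 at 4 h and 1240033 at 48 h. These totals leave out the genes with outsized entries given under the processing. At 4 h those genes held 43.0% and 40.1% of the reads of control replicates 1 and 2. In the other libraries of 4 h they held 0.0767% to 0.105%. At 48 h they held 2.70% in control replicate 1 and 69.3% in control replicate 2. In the induced libraries of 48 h they held 24.2% to 69.3%. The part of these genes in the expansin levels was not tested. Control replicates 2 and 3 of 48 h held identical reads in 42659 of 42659 genes and were counted as 1 sample, so n = 2 for that group and 11 distinct libraries remain. The labels do not say whether replicates were grown apart, and the spread that the p-values measure, that between libraries, may be technical. The 6 leaf genes found by name (4 chlorophyll-binding proteins and the plastid genes psbA and rbcL) summed to 12582 to 16932 CPM, a read count scaled to its library total, in every library, with none at 0. In RNA from whole aerial parts, fewer cells of a type and less RNA per cell cannot be told apart.

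Levels are in CPM of the recovered reads, scaled together across both times by TMM. This unit is not corrected for gene length, so heights are not compared between genes. The deposited normalised values were scaled separately for each time, 1 deposited unit being worth 1.499 to 1.53 CPM at 4 h and 2.83 to 2.84 CPM at 48 h. Tests of induction used the deposited values within a time. A gene was called when its adjusted p over all genes tested was at most 0.05.

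The A6 gene was at higher values in the induced seedlings at both times, and its control means of the 2 times differed less than those of the A10 genes did. LOC107802488 stood at 7.48, 7.15 and 9.53 CPM in the control libraries of 4 h and at 9.87, 12.2 and 10.9 CPM in the induced ones. At 48 h it stood at 7.93 and 5.75 CPM in the control and at 10.3, 8.30 and 10.996 CPM in the induced libraries. The lowest induced library lay above the highest control library at each time, by a small margin in both cases. The gene's 4 h control mean was 8.05 ± 1.29 CPM and its induced mean 10.98 ± 1.15 CPM (SD, n = 3 each), a ratio of 1.36. Its 48 h control mean was 6.84 ± 1.54 CPM (n = 2) and its induced mean 9.86 ± 1.40 CPM (n = 3), a ratio of 1.44. In order of level the groups ran induced 4 h, induced 48 h, control 4 h and control 48 h, and each neighbouring pair in that order overlapped.

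The first A10 gene, LOC107792895, lay on opposite sides of the control at the 2 times. It stood at 5.35, 4.59 and 5.59 CPM in the control libraries of 4 h, against 3.71, 2.25 and 3.92 CPM in the induced ones. At 48 h it stood at 2.38 and 1.19 CPM in the control, against 3.37, 3.07 and 2.94 CPM in the induced libraries. The groups overlapped at neither time, with the induced libraries below the control at 4 h and above it at 48 h. The 4 h means were 5.18 ± 0.524 CPM in control and 3.29 ± 0.910 CPM in induced seedlings (SD, n = 3 each), a ratio of 0.636. The 48 h means were 1.79 ± 0.838 CPM (n = 2) and 3.13 ± 0.220 CPM (n = 3), a ratio of 1.75. The order of level was control 4 h, induced 4 h, induced 48 h and control 48 h. In that order the induced groups of the 2 times overlapped, and the other neighbours did not.

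The second A10 gene, LOC107802017, differed little with induction at 4 h and lay above the control at 48 h. It stood at 8.55, 5.65 and 6.37 CPM in the control libraries of 4 h and at 8.36, 3.82 and 6.62 CPM in the induced ones. At 48 h it stood at 2.38 and 2.02 CPM in the control and at 6.39, 3.26 and 4.50 CPM in the induced libraries. The groups overlapped throughout at 4 h, and at 48 h every induced library lay above both control libraries. The 4 h means were 6.86 ± 1.51 and 6.26 ± 2.29 CPM (SD, n = 3 each), a ratio of 0.914, and the 48 h means were 2.20 ± 0.257 CPM (n = 2) and 4.72 ± 1.58 CPM (n = 3), a ratio of 2.15. The order of level was control 4 h, induced 4 h, induced 48 h and control 48 h, in which only the last pair of neighbours did not overlap.

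**Figure D1:**
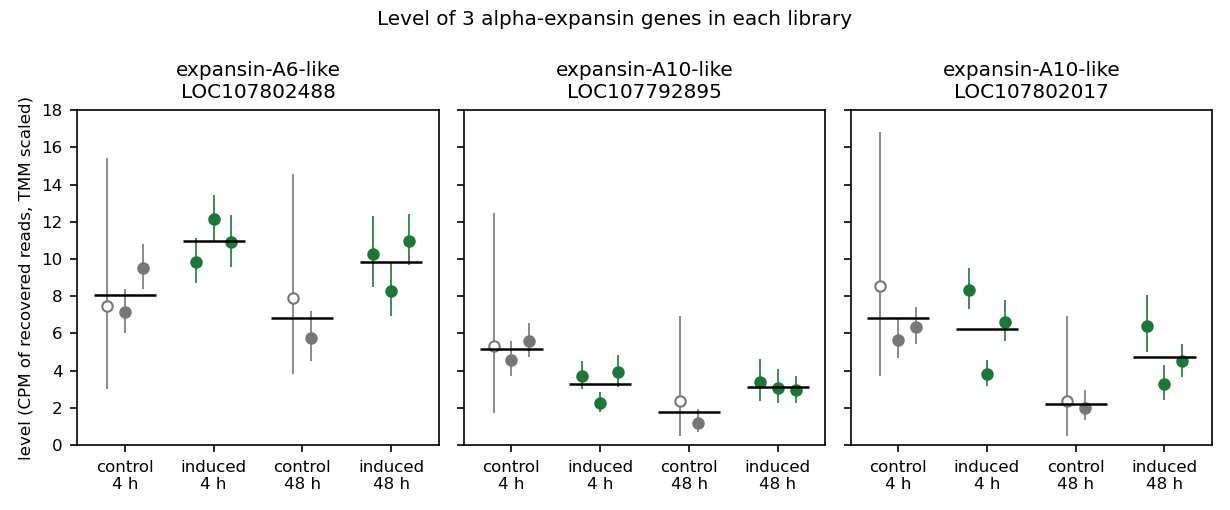
Level of each gene in each of the 11 distinct libraries (y axis, CPM of recovered reads scaled by TMM, from 0) for the 4 groups (x axis). Points are libraries, bars are 95% Poisson intervals of the read count (counting error only), black lines are group means, and open points are control replicate 1, whose bars are the widest. Both A10 genes have their lowest group mean in the control of 48 h, at 1.79 and 2.20 CPM, while the A6 gene ranges only from 6.84 to 10.98 CPM between group means.

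These levels rest on few reads in control replicate 1. The A6 gene had 7 reads there at 4 h and 10 at 48 h, LOC107792895 had 5 and 3, and LOC107802017 had 8 and 3. A count of 3 has an exact 95% Poisson interval of 0.619 to 8.77 reads, for counting error only. The other control library of 48 h held 77, 16 and 27 reads of the 3 genes, and the remaining libraries held 38 to 379. From the other control libraries, 4.76 reads of LOC107792895 were expected in control replicate 1 at 4 h and 1.51 at 48 h, and 5.62 and 2.54 of LOC107802017. Across the 7002 genes expected there at 1 to 3 reads at 48 h, the reads found were 1.25 times those expected, and across the 11364 genes expected at 4 to 10 they were 1.01 times. The part of this excess in the A10 levels of that library was not tested.

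Induction within 4 h was tested first, and none of the 3 genes passed. Limma called 131 of 37238 genes, or 0.352% of those tested. The A6 gene's deposited value was 5.33 ± 0.880 in control and 7.30 ± 0.775 in induced seedlings, a log2 difference of 0.43 (SE 0.14, 95% interval 0.13 to 0.72, adjusted p = 0.488 by limma). For LOC107792895 the values were 3.42 ± 0.336 and 2.19 ± 0.605, a log2 difference of -0.57 (SE 0.19, interval -0.96 to -0.18, adjusted p = 0.464). LOC107802017 had 4.53 ± 0.936 and 4.16 ± 1.52, a log2 difference of -0.15 (SE 0.22, interval -0.63 to 0.33, adjusted p = 0.996). At an unadjusted p of 0.05, limma and edgeR each passed 2 of the 3 genes, as did 5.74% of all genes by limma, and DESeq2 passed none. No tool called any of them after adjustment. Groups that did not overlap were common at this size of experiment: 5.45% of genes lay higher in every induced library of 4 h and 4.95% lay lower, so separation of the 3 libraries against 3 is not in itself a mark of these genes.

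At 48 h all 3 genes lay higher in every induced library, as did 12.5% of all genes tested. Limma called 4 of 31565 genes at that time, 0.0127%, and none of the 3 expansins. LOC107802017 had the largest difference of the 3, with deposited values of 0.776 ± 0.0894 (n = 2) and 1.66 ± 0.556 (n = 3), a log2 difference of 0.73 (SE 0.24, interval 0.24 to 1.23, adjusted p = 0.519 by limma). With the library numbers of the labels as pairs, the result turned on the number given to the repeated control library. The labels list it as 2 and as 3. As number 2 this gene was called (log2 difference 0.91, adjusted p = 0.0121 by limma). As number 3 it was not (0.54, adjusted p = 0.345). In such a fit the induced library without a partner adds nothing to the difference. As number 2 that was induced replicate 2, the lowest at 3.26 CPM, and as number 3 induced replicate 1, the highest at 6.39 CPM. The repeated library correlated at 0.11 with induced library 2 and at 0.47 with induced library 3. The values of LOC107792895 were 0.631 ± 0.295 and 1.10 ± 0.0784 (log2 difference 0.53, SE 0.24, interval 0.02 to 1.03, adjusted p = 0.825). The A6 gene's were 2.41 ± 0.541 and 3.48 ± 0.492 (log2 difference 0.45, SE 0.18, interval 0.07 to 0.84, adjusted p = 0.756). At an unadjusted p of 0.05 limma and edgeR each passed all 3, against 5.9% of all genes by limma, and DESeq2 passed LOC107802017 alone. DESeq2 gave no adjusted p for the A10 genes, and no tool called any of the 3.

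Some of the 48 h pattern was built into how the genes were listed and filtered. All 3 stand in the 604-gene list of higher genes that the authors deposited for 48 h, and none in the 166-gene list for 4 h, so the direction at 48 h is not independent evidence. In the authors' deposited table the ratios of induced to control at 48 h were 1.52 with p = 0.0357 for the A6 gene, 1.96 with p = 0.0208 for LOC107792895 and 2.20 with p = 0.0488 for LOC107802017, unadjusted and with the repeated library counted as 2 samples. Counted once, it gives ratios of deposited means of 1.44, 1.75 and 2.14. The A10 genes passed the filter on low values at 48 h through their induced libraries only. For genes this low the pseudocount also sets part of the size: with 0.1 in place of 0.5 the log2 differences at 48 h were 0.78 for LOC107792895 and 0.96 for LOC107802017. EdgeR, on recovered reads with another scaling, gave 1.18 and 1.15.

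A direct test of whether induction acted differently at the 2 times gave larger differences for the A10 genes than for the A6 gene, and called none. For LOC107792895 the effect at 48 h minus that at 4 h was 1.32 on the log2 scale (SE 0.35, interval 0.60 to 2.05, adjusted p = 0.232 by limma over 41261 genes), and its unadjusted p was 0.000964. For LOC107802017 it was 1.07 (SE 0.38, interval 0.28 to 1.86, adjusted p = 0.541), and for the A6 gene 0.07 (SE 0.24, interval -0.43 to 0.58, adjusted p = 0.993). Of all genes tested 0.16% were called for this difference, and 2 of the 3 expansins passed at an unadjusted p of 0.05 by limma, edgeR and DESeq2 alike, against 6.33% of all genes by limma. With library numbers as pairs, the difference for LOC107802017 was called with the repeated library as number 2 (1.29, adjusted p = 0.0342 by limma). It was not called with that library as number 3 (0.85, adjusted p = 0.277). The induced library of 48 h without a partner was again replicate 2 in the first fit and replicate 1 in the second. For LOC107792895 the paired adjusted p by limma was 0.0612 and 0.0752 in the same order. A course like that of LOC107792895, lower in all induced libraries at 4 h and higher in all at 48 h, was seen in 0.593% of 31383 genes. A course like that of the A6 gene, higher in all at both times, was seen in 0.647%. Both genes stand in the authors' 48 h list, so the 48 h side of these courses is not independent of that listing. At 4 h alone 4.95% of genes lay lower in every induced library and 5.45% lay higher, and at 48 h alone 12.5% lay higher.

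**Figure D2:**
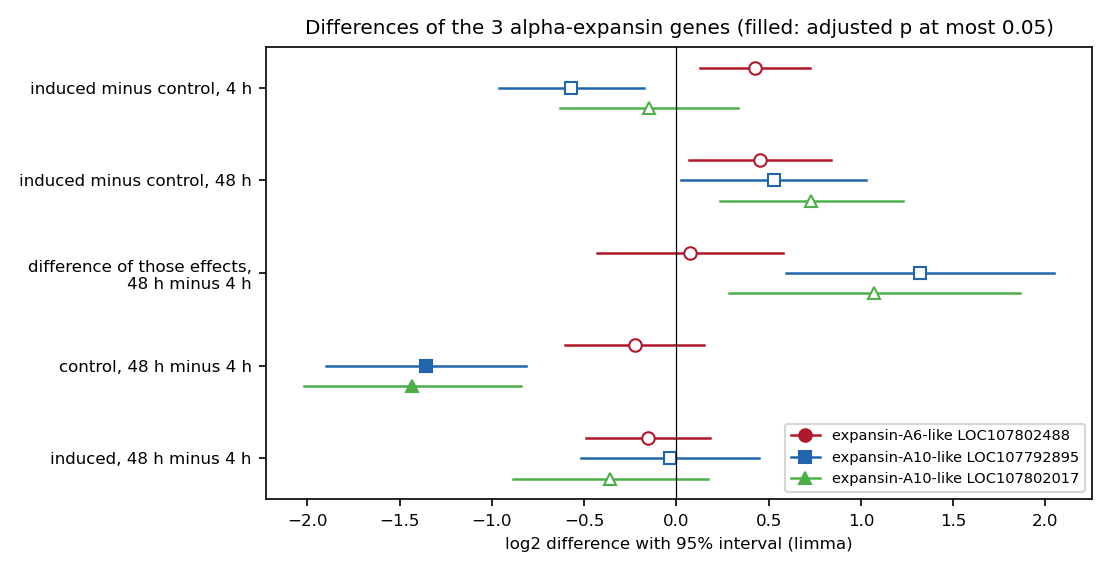
Log2 differences of the 3 genes (x axis) in 5 comparisons (y axis), with 95% intervals from limma, and filled symbols where the adjusted p was at most 0.05. Filled symbols appear only for the A10 genes in the control seedlings between 4 h and 48 h, at -1.36 and -1.43.

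The change that passed the test lay in the control seedlings. Both A10 genes fell between the collection of 4 h, at 7 days of age, and that of 48 h, at 9 days. LOC107792895 fell by 1.36 on the log2 scale (SE 0.26, interval -1.90 to -0.82, adjusted p = 0.000773 by limma), its control mean at 4 h being 2.90 times that at 48 h. LOC107802017 fell by 1.43 (SE 0.28, interval -2.02 to -0.84, adjusted p = 0.00148), with a mean 3.12 times as high at 4 h. Every control library of 4 h lay above both of 48 h for each A10 gene, which 21.0% of all genes did too. The call itself was made in the direction of a fall for 6.5% of 41261 genes. The authors chose their 48 h list with the same control libraries of 48 h, so the fall, like the difference of the effects, is not independent of that listing. Of the 584 listed genes tested here, 101 or 17.3% were called lower in control seedlings, with a median log2 difference of -0.35. EdgeR and DESeq2 each called the same 2 of the 3 genes. The A6 gene had a log2 difference of -0.23 (SE 0.18, interval -0.60 to 0.15, adjusted p = 0.495), and its control groups overlapped.

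In the induced seedlings none of the 3 genes passed for the same interval of time, where limma called 17.4% of all genes. The log2 differences between 48 h and 4 h were -0.03 for LOC107792895 (interval -0.52 to 0.45, adjusted p = 0.949), -0.36 for LOC107802017 (interval -0.88 to 0.17, adjusted p = 0.390) and -0.15 for the A6 gene (interval -0.49 to 0.18, adjusted p = 0.600). No tool passed any of the 3 at an unadjusted p of 0.05, as limma did for 28.6% of all genes. For LOC107792895 the interval in induced seedlings lies above the whole interval in control seedlings, while for LOC107802017 they overlap between -0.88 and -0.84. The test of that difference is the same contrast as the difference of the induction effects above, and neither gene was called by it. A call of a fall in control together with no call in induced seedlings was made for 1.94% of all genes, 802 in number.

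**Figure D3:**
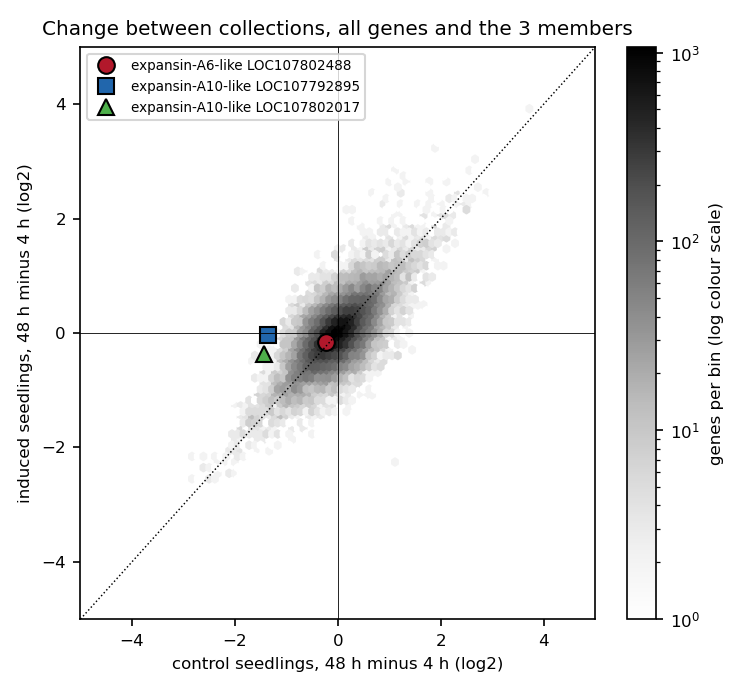
Log2 difference between 48 h and 4 h in control seedlings (x axis) and in induced seedlings (y axis) for 41261 genes, shaded by genes per bin on a log colour scale, of which 5 lie beyond the axes. The dotted line marks equal differences. The A10 genes lie above the dotted line, at -1.36 and -1.43 on the x axis and -0.03 and -0.36 on the y axis, and the A6 gene lies close to the origin.

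The fall in control seedlings depended on which control libraries were used. Without the repeated library of 48 h, which leaves only control replicate 1 there and assumes that it varies like the other groups, LOC107792895 had a log2 difference of -0.98 (adjusted p = 0.0616 by limma) and was no longer called, while LOC107802017 stayed called at -1.33 (adjusted p = 0.0461). Without control replicate 1 of both times, a setting chosen after the data were seen, the differences were -1.71 (adjusted p = 0.00233) and -1.37 (adjusted p = 0.0386). Age, collection and time since the start of treatment differ together between 4 h and 48 h and cannot be told apart. Markers of dividing cells (7 cyclin and CDKB genes) summed to 84.5 to 99.6 CPM in control libraries of 4 h and 115 to 131 CPM in those of 48 h, with 2 of 7 called higher, as were 5.68% of all genes, and none at 0. Their part in the result was not tested. In induced libraries they summed to 90.03 to 98.9 and 108 to 112 CPM, with 3 of 7 called higher against 8.47% of all genes.

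Of the markers of other tissues, only genes listed for roots and root-made alkaloids were called for induction, at 4 h. The 20 genes listed for roots and root-made alkaloids summed to 89.7 to 122 CPM in control and 161 to 280 CPM in induced libraries of 4 h, with 8 of 19 tested called higher against 0.0967% of all genes. All 8 stand in the authors' own 4 h list, as do 11 of the 20 genes, so this direction is not independent evidence. At 48 h they summed to 99.1 to 196 CPM in control and 104 to 162 CPM in induced libraries, where up to 4 of them were at 0. The 2 genes found by name for the trichome list, both lipid-transfer proteins, summed to 145 to 200 and 127 to 178 CPM at 4 h, control before induced. At 48 h they summed to 176 to 194 and 226 to 237 CPM, with none at 0. NtLTP3 (LOC107814800) held most of this, with group means of 152 to 227 CPM. Neither gene was called at 4 h or at 48 h (adjusted p = 0.764 for NtLTP3 and 0.766 for LOC107775583 by limma). At 48 h 12.5% of all genes lay higher in every induced library, and LOC107775583 stands in the authors' 48 h list. Whether the 2 lipid-transfer proteins mark trichomes here, and the part of these tissues in the expansin levels, were not tested. No gene name matched the lists for stomata and vascular cells, or the trichome list's other names, such as cembratrienol synthase and phylloplanin. Only 1464 of 45034 genes had a RefSeq name or a description, so genes of these kinds may be in the tables without one.

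The A10 genes varied together across libraries more than either did with the A6 gene. The Pearson correlation of their log2 levels was 0.847 over the 11 distinct libraries and 0.831 over the 9 without control replicate 1. With the A6 gene it was 0.241 for LOC107792895 and 0.393 for LOC107802017 over the 11 libraries, and 0.357 and 0.540 over the 9. These are descriptions over libraries that share group, depth and scaling. If the A10 genes share reads, part of their likeness would follow from the way those reads were divided, which was not tested.

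At 4 h the ratio of the reads of the A10 genes was higher in each induced than in each control library, which was not enough to pass a test. LOC107802017 had 1.60, 1.23 and 1.14 times the reads of LOC107792895 in the control libraries and 2.25, 1.70 and 1.69 times in the induced ones, with no overlap. At 48 h the ratios were 1.00 and 1.69 in the control and 1.89, 1.06 and 1.53 in the induced libraries, which overlapped. The control ratio of 1.60 rests on 8 reads against 5, and that of 1.00 on 3 against 3. How many other pairs of genes separate in this way was not counted. A two-sided exact permutation test gave p = 0.1 at 4 h, the smallest that 3 libraries against 3 allow, and 0.4 adjusted over 4 such tests, so the design could not pass it. Gene lengths were not used here, so the ratio is of reads and not of molecules.

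Summing the A10 genes sets aside how reads were divided between them, a setting chosen after the data were seen. Together they stood at a mean of 12.03 CPM (10.2 to 13.9) in control and 9.56 CPM (6.07 to 12.1) in induced libraries of 4 h. At 48 h they stood at 3.98 CPM (3.21 to 4.76) in control and 7.84 CPM (6.32 to 9.76) in induced libraries. The sum fell in control seedlings, with a log2 difference of -1.49 (adjusted p = 0.000442 by limma) and had a difference of -0.24 in induced ones (adjusted p = 0.544). Its induction effect was -0.34 at 4 h (adjusted p = 0.953) and 0.77 at 48 h (adjusted p = 0.318), and the difference of those effects was 1.26 (adjusted p = 0.278).

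Besides these, 2 alpha-expansins carry a name in the tables, and neither was called lower in control seedlings. Nt-EXPA1 (LOC107798333), a tobacco alpha-expansin, stood at group means of 39.3 CPM in control and 51.9 CPM in induced seedlings of 4 h and 53.0 and 44.8 CPM at 48 h. It rose in control seedlings between the times by 0.44 on the log2 scale (adjusted p = 0.0370 by limma). Nt-EXPA4 (LOC107808676), of the same family, stood at 137 and 167 CPM at 4 h and 146 and 101 CPM at 48 h. In induced seedlings it fell by 0.74 on the log2 scale (adjusted p = 0.00143), the group in which the A10 genes did not pass. Neither was called for induction at 4 h (log2 differences 0.41 and 0.30) or at 48 h (-0.24 and -0.54). Only 5 genes are named as expansins by either source of names, and other members of the family may be in the tables without a name.

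**Figure D4:**
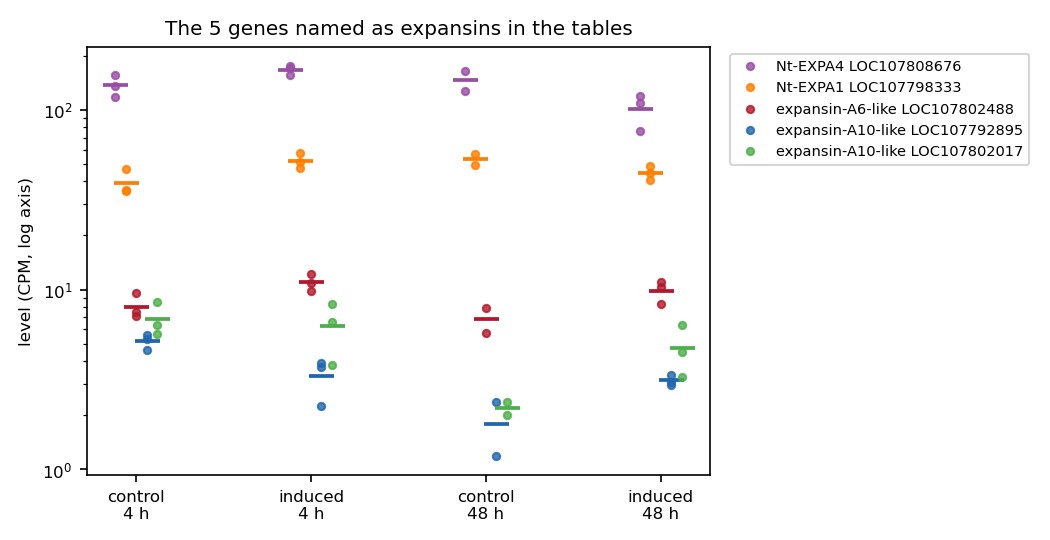
Levels of the 5 genes named as expansins (y axis, CPM on a log axis) in the 4 groups (x axis). Points are distinct libraries and dashes are group means. The A10 genes have their lowest mean in the control of 48 h, while Nt-EXPA1 has its highest mean, 53.0 CPM, in that group and Nt-EXPA4 has its lowest mean, 101 CPM, in the induced group of 48 h.

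Of the 18 other genes named for loosening or building the wall (the 2 expansins above included), 17 were tested. At 4 h limma called 2 higher and none lower, against 0.352% of all genes called either way, and edgeR and DESeq2 each called 1 higher and none lower, with a median log2 difference by limma of 0.20 against 0.02 over all genes. The 2 were an extensin-3-like gene (LOC107826255), of a family of structural wall glycoproteins, with 1.68 (adjusted p = 0.0257 by limma), and a non-classical arabinogalactan protein 31-like gene (LOC107813352) with 0.92 (adjusted p = 0.0140). Both stand in the authors' own 4 h list and were found by name only through its descriptions, so their direction is not independent evidence. Descriptions came only with the authors' lists of higher genes, so the search by description favoured higher genes. Outside both lists all 15 wall genes were tested at 4 h, and limma called none, with a median log2 difference of 0.17. At 48 h limma, edgeR and DESeq2 called none of the 17 (3, 3 and 2 at an unadjusted p of 0.05), and the median was 0.03 against 0.02.

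Between 4 h and 48 h these wall genes moved both ways. In control seedlings limma called 2 higher and 1 lower of 17, where 12.2% of all genes were called. EdgeR called 1 higher and none lower, and DESeq2 called 1 higher and 1 lower. Besides Nt-EXPA1, the cellulose synthase CesA1 (LOC107832318), a subunit of the complex that spins cellulose, rose by 0.48 on the log2 scale (adjusted p = 0.0249 by limma). The endoglucanase Cel8 (LOC107807143), of a family of enzymes that cut glucan chains, fell by 0.72 (adjusted p = 0.0122). In induced seedlings limma called 3 higher and 4 lower, against 17.4% of all genes, edgeR 4 and 4, and DESeq2 2 and 3. Those called lower by limma were Nt-EXPA4, Cel8, AGP1 (LOC107808597) and the arabinogalactan protein 31-like gene. EXGT-N2 (LOC107768220), a xyloglucan endotransglycosylase that cuts and rejoins xyloglucan, was among those limma called higher, at 0.31 (adjusted p = 0.0432), with the endoglucanase Cel2 (LOC107774012) and AGP3 (LOC107763982). Medians were 0.05 in control and -0.21 in induced seedlings, against -0.01 over all genes in each.

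The genes most like each expansin over the 11 libraries were mostly without a name. For the A6 gene they were LOC107791007 (Pearson r of log2 levels 0.919), LOC107767588 (0.912) and LOC107798107 (0.906). The most alike genes with a name were a bHLH87-like transcription factor gene (LOC107784890, 0.850), BIG GRAIN 1-like B (LOC107812681, 0.842) and a KRTCAP2 homolog (LOC107789876, 0.840). Each was named only by a description, and descriptions came only with the authors' lists of higher genes. The choice among genes with a name therefore favoured higher genes. The bHLH87-like gene had group means of 9.997 and 16.6 CPM at 4 h and 9.51 and 16.7 CPM at 48 h, control before induced. These are higher in the induced group at both times. That gene was chosen for its likeness to the A6 gene and stands in the authors' 48 h list, so its direction is not independent evidence.

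For LOC107792895 the most alike were LOC107822007 (r 0.959), the pseudogene LOC107790160 (0.937) and LOC107817806 (0.935), and, with a name, an autophagy-related protein 8f-like gene (LOC107776651, 0.900), a tropinone reductase-like 3 gene (LOC107823087, 0.894) and a tafazzin-like gene (LOC107827585, 0.884). All 6 had their lowest group mean in the control of 48 h, as did LOC107792895, the gene they were chosen to be like. All of them but LOC107822007 stand in the authors' 48 h list of higher genes, so this shared low is not independent evidence. Those with a name were named only by descriptions that came with the authors' lists. For LOC107802017 they were LOC107823087 itself (r 0.935), LOC107785236 (0.933) and LOC107799730 (0.932), and, with a name, also oipk (LOC107789724, 0.928) and NtTPC1A (LOC107770546, 0.924). LOC107823087 is on both lists, with group means of 12.4 and 10.8 CPM at 4 h and 5.56 and 8.75 CPM at 48 h. With 11 libraries and 41261 genes to choose from, the highest correlations are high by selection and are given as a description only.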

How the data were processed

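RNA-seq values of 12 samples in 4 groups of 3 were used, with groups from the sample titles. The authors deposited a signal per gene and library, found from the values to be read counts each divided by a constant of its library, with the 2 times scaled separately. Dividing by the value of 1 read gave whole reads for 100% of values within 0.01. The deposited ratio is the mean of induced over control, a linear fold, and the deposited p-value is unadjusted. EdgeR is named without a version, per the submitters' processing notes. Not given in the sources used here are the aligner, genome build, annotation and use of strand.

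Genes with an entry above 5000 and over 20 times the gene's median (4 at 4 h, 14 at 48 h) were left out. The planned test allowed for raw counts. As the values are a signal, limma with trend and robust moderation was run on log2(value + 0.5), for genes that reached a value of 1 in at least 3 libraries (37238 at 4 h, 31565 at 48 h). This scale understates the change of low genes. Contrasts between times were fitted on recovered reads, scaled by TMM to CPM, of 41261 genes. Benjamini-Hochberg adjustment covered all genes tested. On recovered reads edgeR called 107 genes at 4 h and 1 at 48 h. Tools were limma 3.58.1, DESeq2 1.42.0 and edgeR 4.0.16 in R 4.3.3. Limma and edgeR fits within each time were also run on simulated data. Changes were planted there only in genes above a set read count, so those runs do not cover genes with few reads. 1 read was worth 0.697 and 0.28 deposited units in control replicate 1 and 0.0152 to 0.0322 in the others.

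The library number in each description was checked as a pairing from deviations from group means: same-numbered libraries correlated at 0.16, 0.22 and 0.18 over 19703 genes at 4 h (others -0.18 to 0.03) and at 0.54 and 0.47 over 11369 genes at 48 h, where the 2 distinct controls mirror each other by construction. The repeated control library, listed as numbers 2 and 3, correlated at 0.11 with induced library 2 and at 0.47 with induced library 3. The main tests, and the shares of all genes set beside them, used no pairing. Same-numbered libraries were taken as pairs in an alternative limma fit. Its results are printed beside the calls that it alters and for the difference of LOC107792895.

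Names came from the deposited descriptions and the RefSeq gene table of ASM71507v2, used for names only. Of 45034 genes 39993 matched an entry there, but only 1464 had a RefSeq name or a description. Descriptions came only with the authors' lists of higher genes. The rule for named genes took the 3 members, genes with expansin or wall names that passed a test, and the 3 most correlated genes, with and without a name. Members and lists were chosen with earlier results of these data known. Alternatives were other pseudocounts, filters, scalings, tools, pairings, the A10 genes summed and leaving out each library.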

Additional observations from a re-analysis of the deposited data

Results flagged for a closer look

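LOC107792895 (expansin-A10-like) was flagged because its induced libraries all lay below the control at 4 h and all above it at 48 h. The difference of the induction effects was 1.32 on the log2 scale, with an unadjusted p of 0.000964 and an adjusted p of 0.232 by limma, so it failed the correction over 41261 genes. With library numbers as pairs the adjusted p by limma was 0.0612 or 0.0752, with the repeated library as number 2 or 3. An opposite course of this kind was seen in 0.593% of 31383 genes. The direction at 48 h is not independent of the authors' 48 h list or of the filter, which the gene passed there through induced libraries only. At 4 h alone 4.95% of genes lay lower in every induced library, and at 48 h alone 12.5% lay higher. Whether the course is more frequent than these shares would give was not tested.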

How the results depend on the processing

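Of 350 values recomputed under alternatives for the 3 genes, 337 kept their direction and their side of the threshold. The others were 10 that changed sign, 2 that gained a call and 1 that lost it. The sum of the A10 genes is entered here once for each of them, and many settings share libraries, so these are not independent checks. The lost call is the fall of LOC107792895 in control seedlings without the repeated 48 h library (-0.98), and both gained calls are of LOC107802017 with the replicate block by library number and the repeated library as number 2 (0.91 at 48 h, 1.29 for the difference). In those 2 fits induced 48 h replicate 2 had no partner. The block changed no other call of these genes. The sign changes were of values not called: LOC107802017 at 4 h was 0.011 by edgeR and 0.13 without induced replicate 2, also with a filter on the mean, and the difference for the A6 gene was -0.0046 with the block by title number and -0.073, -0.14 and -0.0046 without control 4 h replicate 3, the repeated 48 h library and induced 48 h replicate 3. LOC107792895 in induced seedlings between the times was 0.056, 0.091 and 0.0018 without induced 4 h replicates 1 and 3 and induced 48 h replicate 3. Why these values moved was not tested.

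Without each library in turn the log2 difference of LOC107792895 ranged from -1.74 to -0.98 in control and from -0.26 to 0.091 in induced seedlings between the times. Its induction effects ranged from -0.69 to -0.37 at 4 h and from 0.26 to 0.80 at 48 h, and their difference from 0.94 to 1.70. For LOC107802017 the ranges were -1.53 to -1.27, -0.65 to -0.13, -0.36 to 0.13, 0.54 to 0.91 and 0.76 to 1.30, in the same order. For the A6 gene they were -0.44 to -0.01, -0.23 to -0.04, 0.35 to 0.55, 0.26 to 0.64 and -0.14 to 0.29. Without an induced 48 h library the A10 genes missed the filter there, and their values come from a filter on the mean over all libraries (at least 0.5), added after the data were seen.

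Counts of called genes moved more. At 4 h 131 became 376 and 242 with the blocks by library and title number, 52 with both times in 1 fit, and 85 to 156 without 1 library. At 48 h 4 became 11 with a pseudocount of 1, 1 by edgeR, 13 by DESeq2, 10 with both times in 1 fit, 429 or 646 with the block by library number, 148 or 1 with that by title number, 3 to 61 without 1 library, and 31 and 72 without induced replicate 2 and 3 with the filter on the mean. For the difference 66 became 39 by edgeR, 343 or 433 and 144 or 100 with those blocks, 41 without control replicate 1 of both times, 35 to 94 without 1 library and 19 without the repeated one. For control seedlings between the times 5025 became 2733 by DESeq2, 3346 without control replicate 1 of both times 2243 without the repeated library and up to 5264 without another, and for induced seedlings 7165 became 5313 to 7265. Depth limits the A10 genes most, at 3 reads each in control replicate 1 of 48 h.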
